A study of Homo sapiens with 6 samples.

Results

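DNA replication genes encode the proteins that mark and license origins, unwind the DNA, copy it and supply the nucleotides for it. The 47 genes described here were taken by symbol from a list of origin, helicase, polymerase, clamp and nucleotide supply genes, and all 47 were found among the 19727 genes of the deposited table. They were measured by RNA-seq in DU145, an established human prostate cancer cell line, in which 3 libraries of cells carrying a lentivirus for the circular RNA circCSPP1 (labelled as overexpression) were compared with 3 libraries of cells carrying the control lentivirus-NC (labelled as normal). Both were stable lines made by puromycin selection, so every library shares the lentiviral transfer and the drug. The 2 groups are called circCSPP1 and NC below. Each has its own vector and line, so effects of the circle, the vector and the culture cannot be told apart. The labels do not say whether replicates were separate cultures, so the p-values measure the spread between these libraries, which may be technical. The design text of the series calls the samples paired, and fits with and without a replicate block are given.

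Before S phase, the origin recognition complex with CDC6 and CDT1 loads the ring of MCM subunits 2 to 7 onto DNA, and geminin (GMNN) blocks CDT1 once S phase has begun. CDC45 and the GINS complex turn the ring into the active helicase. Polymerase alpha-primase starts each strand, polymerases delta and epsilon extend it on the PCNA clamp that the RFC complex loads, and FEN1 and LIG1 join the Okazaki fragments. Most of these genes are transcribed in late G1 and S phase under E2F factors, so their transcripts follow the share of dividing cells in many tissues and lines. In bulk RNA, fewer cells in S phase and less RNA per cell cannot be told apart.

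Promoter sequence is shown for 6 of these genes because members above and below the control carried the same kind of E2F match. In RefSeq promoter windows (GRCh38.p14, 250 bases before to 50 after the start site), 41 of the 47 members were matched by symbol. Both strands were searched for the E2F words TTTCCCGC, TTTCGCGC, TTTGCCGC and TTTGGCGC. At least 1 was present in 20 of the 41 members (48.8%), in 6.71% of the 9646 tested genes matched and in 3.30% of all 34943 windows. The word CCAAT was present in 63.4% of the members and 43.0% of the tested genes, and the word GGGCGG in 75.6% and 78.6%. The capitals below mark the E2F word or its reverse complement, 5′ to 3′ on the strand of the gene. In MCM2 the reverse complement of the same word overlaps the marked letters and ends in lower case. The windows are chr3:127598403-127598430 (MCM2, plus strand), chr6:52284729-52284756 (MCM3, minus), chr7:100101389-100101416 (MCM7, minus), chr16:88803744-88803771 (CDT1, plus), chr18:657604-657631 (TYMS, plus) and chr14:49688202-49688229 (POLE2, minus).
MCM2: gtgaaccactTTTCGCGCgaaacctggt
MCM3: gttcggaagtTTTCGCGCcggggtggag
MCM7: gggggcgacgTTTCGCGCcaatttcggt
CDT1: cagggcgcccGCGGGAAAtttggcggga
TYMS: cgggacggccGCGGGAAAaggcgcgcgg
POLE2: tgcggcggtgGCGCCAAAtcgcaaatat
The 20 members with an E2F word split into 6 above and 14 below the control in circCSPP1, at a median of -0.12 on the log2 scale, against -0.10 for the 21 without. A match is a description of these letters and not evidence of a bound factor.

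The libraries differed in ways that bear on these genes. Depth, read from the steps of low FPKM values (fragments per kilobase of transcript, scaled to the number of fragments in the library), was 28900000 to 36600000 fragments per library and overlapped between the groups. The member with the fewest fragments, GINS1, corresponded to at least 339 fragments in each library. The epithelial markers EPCAM, KRT8, KRT18, KRT19 and CDH1 were present in all libraries, but all 5 fell in circCSPP1, and their summed FPKM went from 2271 to 2361 in NC to 1046 to 1278. The prostate kallikreins KLK3 and KLK2 were listed at 0 in every library. Of the markers of other cells, COL1A1 fell from 3.11, 4.06 and 2.60 to 1.36, 1.11 and 0.99 FPKM, PTPRC did not exceed 0.08 FPKM and CD3E and LUM were listed at 0. The summed level of the 5 fibroblast markers was 2.85 to 4.34 FPKM in NC and at most 1.97 in circCSPP1. That of the 4 immune markers, most of it from CD68, was 46.2 to 52.1 and 36.6 to 51.7 FPKM, and that of the 3 endothelial markers 0.28 to 0.62 and 0.16 to 0.56 FPKM. The part of these marker shifts in the values below was not tested.

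All 47 members passed the filter of a mean of at least 1 FPKM, and the group difference was fitted with limma on log2(FPKM + 1) over the 12322 genes that did so. A fold change on this scale understates that of low genes. As a whole, the replication genes differed little from their control level, and more of them lay below it than above it. Of the 47, 1 gene passed an adjusted p of 0.05 (Benjamini-Hochberg over all tested genes), TYMS, which fell, where 11.4% of all tested genes passed, 4.69% higher and 6.66% lower. No member passed an unadjusted p of 0.01 with an absolute log2 fold change of 1.5, thresholds used in the study that 0.195% of tested genes passed, while 12 of 47 had an unadjusted limma p under 0.05 against 28.2% of tested genes. The log2 fold changes ran from -0.45 to 0.32 with a median of -0.10, and 33 of the 47 (70.2%) were below 0. The median of all tested genes was -0.03, with 6648 of 12322 (54.0%) below 0. The standard errors of the members ran from 0.069 to 0.22.

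The summed FPKM of the 47 genes was 2553, 2527 and 2628 in NC replicates 1, 2 and 3, and 2491, 2481 and 2486 in circCSPP1. The 3 circCSPP1 sums lay below the 3 NC sums. As a share of all FPKM in the library the members held 0.425%, 0.419% and 0.436% in NC and 0.415%, 0.421% and 0.417% in circCSPP1, and these shares overlapped. The values of the groups did not overlap for 23 of 47 members, 17 lower (36.2%) and 6 higher (12.8%) in circCSPP1. Of all tested genes 36.4% were separated, 20.5% lower and 16.0% higher. The plot of log2 fold changes by class shows members on both sides of 0 in most classes.

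**Figure D1:**
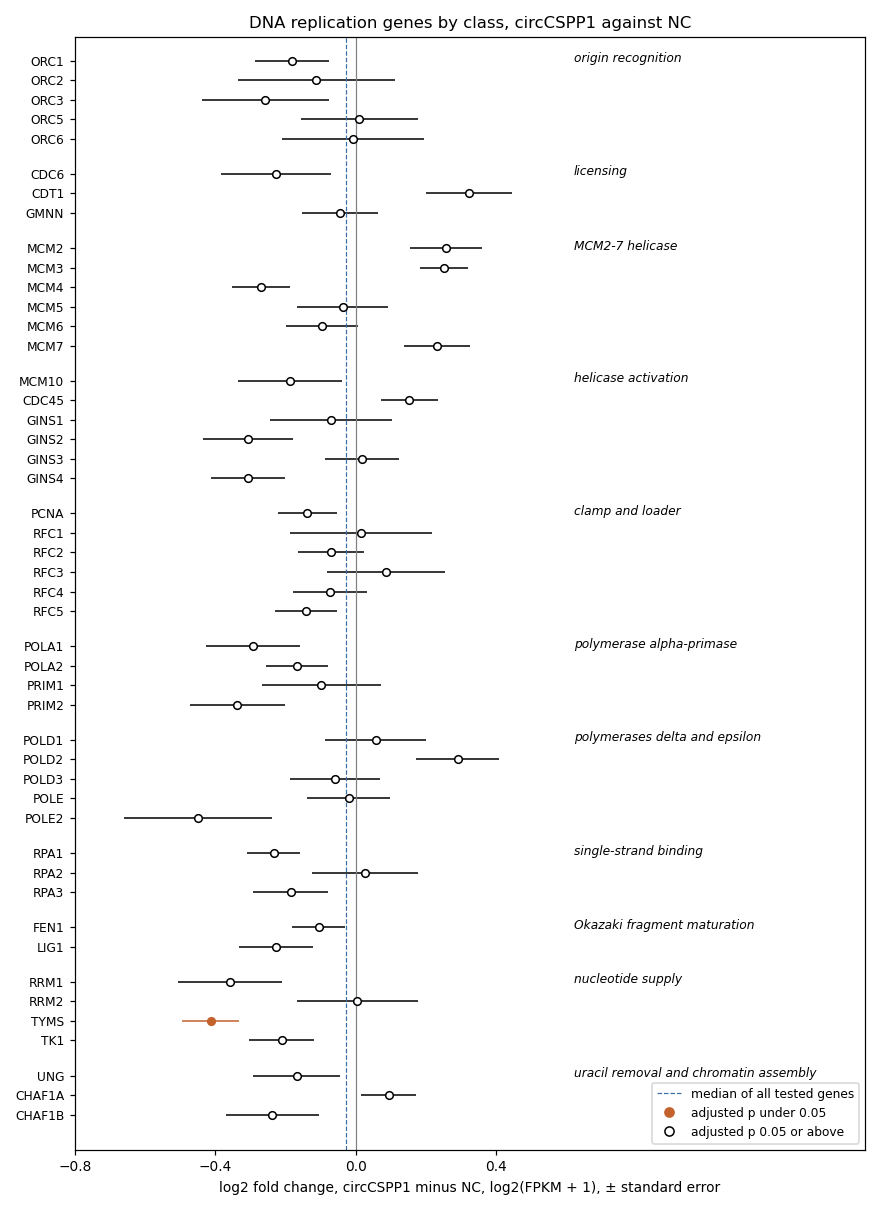
Log2 fold change of each of the 47 DNA replication genes (circCSPP1 minus NC on log2(FPKM + 1), 3 libraries a group) with its standard error, by class. TYMS is the filled point at -0.41; open points had an adjusted p of 0.05 or above, and the dashed line is the median of all tested genes, -0.03.

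By level, TK1 and TYMS were the most abundant members and GINS1 and POLA1 the least, with means over the 6 libraries from 4.48 to 214 FPKM and a median of 34.8. TK1 (230 ± 1.68 FPKM in NC, SD, n = 3) and TYMS (185 ± 11.1, n = 3) differed beyond their spread in NC, whereas MCM5 (147 ± 4.30, n = 3) and MCM2 (141 ± 3.43, n = 3) were neighbours whose values overlapped. MCM4 (110 ± 3.44), PCNA (112 ± 7.96) and MCM3 (109 ± 3.00) overlapped as well.

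The nucleotide supply genes held the clearest difference. TYMS encodes thymidylate synthase, which makes dTMP from dUMP, and lies on chromosome 18 from 657604 to 673578 on the plus strand (GENCODE, GRCh38). TYMS measured 179, 178 and 197 FPKM in NC replicates 1, 2 and 3 and 145, 130 and 140 FPKM in circCSPP1. All circCSPP1 values were below all NC values. The means were 185 ± 11.1 and 138 ± 7.32 FPKM (SD, n = 3 each), a difference of -0.41 ± 0.081 (SE) on the log2 scale (adjusted p = 0.020, limma). An exact permutation test, two-sided, returned p = 0.10, which is the lowest value this design can reach. The adjusted p was 0.077 to 0.097 when NC replicate 1, 2 or 3 or circCSPP1 replicate 3 was left out, with log2 fold changes of -0.36 to -0.44. On the opposite strand, exons of ENOSF1 share 967 bases with those of TYMS, 58.2% of its exon bases, and the strand setting of the authors' counting is not given in the sources used here, so fragments of the 2 genes may not be told apart. ENOSF1 itself measured 22.7, 23.3 and 24.6 FPKM in NC and 24.6, 26.9 and 23.7 FPKM in circCSPP1, and these values overlapped. GENCODE also lists 2 pseudogenes named after TYMS.

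TK1, thymidine kinase, which salvages thymidine, measured 229, 229 and 232 FPKM in NC and 224, 180 and 193 FPKM in circCSPP1. Its groups did not overlap, but circCSPP1 replicate 1 was close to the controls. The groups differed by -0.21 ± 0.092 (SE) on the log2 scale (adjusted p = 0.18, limma), and -0.30 (adjusted p = 0.0085) without that library. RRM1 and RRM2 are the large and small subunits of ribonucleotide reductase, which makes deoxyribonucleotides. RRM1 measured 44.8, 45.3 and 49.0 FPKM in NC and 28.2, 41.1 and 39.8 FPKM in circCSPP1, a log2 fold change of -0.36 (adjusted p = 0.16) that was -0.19 without circCSPP1 replicate 1. RRM2 measured 61.6, 61.2 and 67.3 FPKM in NC and 48.5, 80.5 and 65.4 FPKM in circCSPP1, with the NC values inside the circCSPP1 range and a log2 fold change of 0.004 (adjusted p = 0.99). The ratio of RRM2 to RRM1 within a library, which no scaling between libraries can move, was 1.38, 1.35 and 1.37 in NC and 1.72, 1.96 and 1.64 in circCSPP1 (chosen after the values were seen, with no test). Summed over the 4 nucleotide supply genes, the level was 524 ± 18.5 FPKM in NC and 439 ± 6.59 FPKM in circCSPP1 (SD, n = 3).

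None of the 6 MCM helicase subunits passed an adjusted p of 0.05 (limma, 0.059 to 0.88), while 3 were separated above the control and 1 below it. Of all tested genes 16.0% were separated above the control and 20.5% below it. MCM2 measured 145, 139 and 139 FPKM in NC and 195, 153 and 161 FPKM in circCSPP1, a difference of 0.26 ± 0.10 (SE) on the log2 scale (adjusted p = 0.15, limma) that was 0.15 without circCSPP1 replicate 1. MCM3 measured 111, 106 and 111 FPKM in NC and 129, 131 and 132 FPKM in circCSPP1, a difference of 0.25 ± 0.069 (SE) on the log2 scale (adjusted p = 0.059, limma). MCM7 measured 134, 119 and 135 FPKM in NC and 167, 145 and 144 FPKM in circCSPP1, a log2 fold change of 0.23 (adjusted p = 0.16). In these 3 genes every circCSPP1 library was above every NC library. MCM4 lay below the control, with 111, 106 and 112 FPKM in NC and 83.8, 93.5 and 95.5 FPKM in circCSPP1, a difference of -0.27 ± 0.082 (SE) on the log2 scale (adjusted p = 0.078, limma) and no overlap. MCM5 (147 ± 4.30 in NC, 144 ± 26.0 FPKM in circCSPP1, SD, n = 3) and MCM6 (42.9 ± 0.996 and 40.3 ± 4.42 FPKM) overlapped, and MCM6 was the least abundant of the 6 in each library. MCM3, MCM5, MCM6 and MCM7 are given here after their values were seen.

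Ratios within a library were taken for the subunits after their values were seen and are given with no test. MCM3 and MCM4 were level in NC, with ratios of 1.005, 1.001 and 0.986, and MCM3 exceeded MCM4 in circCSPP1, with ratios of 1.53, 1.40 and 1.38. The ratio of MCM2 to MCM4 was 1.31, 1.31 and 1.24 in NC and 2.32, 1.63 and 1.69 in circCSPP1. A separation is fixed where a subunit above the control is divided by one below it, as in both of these. The ratio of MCM5 to MCM4 overlapped between the groups, at 1.34 ± 0.0083 in NC and 1.604 ± 0.393 in circCSPP1 (SD, n = 3). MCM4 held 16.0%, 16.1% and 16.3% of the summed FPKM of the 6 subunits in NC and 10.7%, 13.7% and 13.3% in circCSPP1, as the plot of subunit shares shows. MCM2 exons share 45 bases with TPRA1 on the opposite strand, a gene that measured 38.6 to 42.2 FPKM in NC and 88.6 to 101 FPKM in circCSPP1, and MCM7 exons share 277 bases with AP4M1, at 9.80 to 13.6 and 9.02 to 10.2 FPKM.

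**Figure D2:**
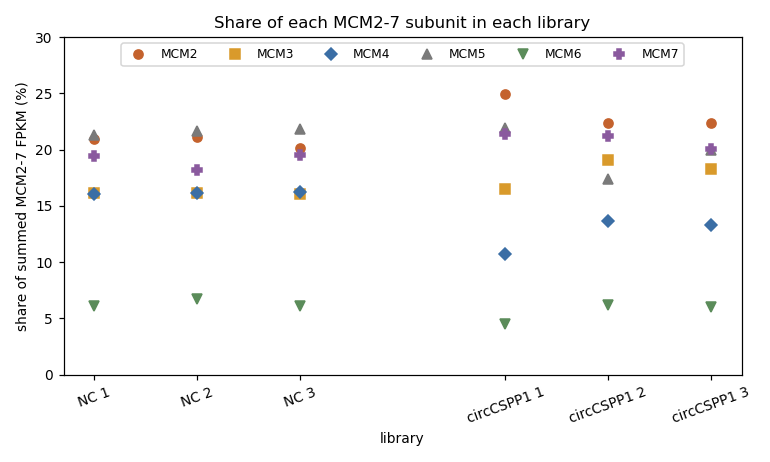
Share of each MCM subunit in the summed FPKM of the 6 subunits, in percent, for each of the 6 libraries (1 point per subunit and library). MCM4 lay at 16.0% to 16.3% in NC and at 10.7% to 13.7% in circCSPP1, and MCM2 was above its NC shares in every circCSPP1 library.

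Among the licensing factors, CDT1, which brings the MCM ring to the origin, measured 38.9, 37.2 and 32.9 FPKM in NC and 52.7, 40.4 and 44.5 FPKM in circCSPP1. The groups did not overlap, and the log2 fold change of 0.32 was the highest of the 47 (SE 0.12, adjusted p = 0.13, limma). Without circCSPP1 replicate 1 it was 0.22, and RFC3 and MCM3 were the highest at 0.26 each. CDC6, its partner in loading, measured 32.4, 28.01 and 33.0 FPKM in NC and 21.3, 32.5 and 26.4 FPKM in circCSPP1, with overlap. Geminin, the inhibitor of CDT1, differed by -0.04 on the log2 scale (adjusted p = 0.83). The ratio of CDT1 to geminin was 1.05, 1.21 and 1.02 in NC and 1.78, 1.16 and 1.37 in circCSPP1, and circCSPP1 replicate 2 lay inside the NC range.

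The 5 origin recognition subunits had log2 fold changes of -0.26 to 0.01 (adjusted p of 0.31 to 0.99), and only ORC1, the largest subunit, was separated, at 8.01, 8.20 and 9.22 FPKM in NC and 7.04, 7.54 and 7.47 FPKM in circCSPP1. ORC2, the most abundant of them, measured 22.1, 24.5 and 24.3 FPKM in NC and 14.8, 29.5 and 23.4 FPKM in circCSPP1, so that circCSPP1 held both the lowest and the highest value. Its log2 fold change turned from -0.11 to 0.15 without circCSPP1 replicate 1. ORC3 measured 10.6, 9.80 and 10.6 FPKM in NC and 6.12, 10.1 and 9.80 FPKM in circCSPP1. It had the lowest log2 fold change of the class, -0.26 (SE 0.18, adjusted p = 0.39, limma). Without circCSPP1 replicate 1 that of ORC3 was -0.05, and ORC1 was the lowest at -0.15.

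In the helicase activation class, CDC45 was separated above the control and 2 GINS subunits below it. Over all tested genes 16.0% were separated higher and 20.5% lower. CDC45 measured 42.6, 45.1 and 44.4 FPKM in NC and 51.0, 47.5 and 48.7 FPKM in circCSPP1, a log2 fold change of 0.15 (adjusted p = 0.26). GINS2 measured 18.1, 15.2 and 19.7 FPKM in NC and 12.6, 14.7 and 14.9 FPKM in circCSPP1, a log2 fold change of -0.31 (adjusted p = 0.17), and GINS4 differed by -0.31 on the log2 scale (adjusted p = 0.10), also without overlap. GINS1, GINS3 and MCM10 overlapped, at log2 fold changes of -0.07, 0.02 and -0.19.

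The sliding clamp PCNA, a common marker of proliferating cells, measured 105, 109 and 121 FPKM in NC and 104, 96.5 and 103 FPKM in circCSPP1. The groups were separated by the small gap between 105 and 104, and the difference was -0.14 ± 0.084 (SE) on the log2 scale (adjusted p = 0.33, limma). Of the 5 subunits of its loader, RFC5 was separated, at 39.6, 37.6 and 38.5 FPKM in NC and 32.4, 36.4 and 35.9 FPKM in circCSPP1, with a log2 fold change of -0.14 (adjusted p = 0.33), and RFC1 to RFC4 overlapped, with log2 fold changes of -0.07 to 0.09.

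All 4 polymerase alpha-primase genes were below 0, with log2 fold changes of -0.10 to -0.34 and none past an adjusted p of 0.05 (limma; the lowest was 0.15, for PRIM2). POLA1, POLA2 and PRIM2 were separated and lower, as were 20.5% of tested genes. PRIM2, the large primase subunit, measured 28.4, 24.4 and 26.2 FPKM in NC and 17.1, 23.6 and 21.6 FPKM in circCSPP1. The accessory subunit POLA2 measured 34.5, 38.3 and 37.8 FPKM in NC and 34.1, 31.7 and 32.3 FPKM in circCSPP1. PRIM1 exons share 362 bases (25.8%) with AC117378.1 and 7 with NACA, both on the same strand. They also share 132 bases (9.40%) with HSD17B6 on the opposite strand. AC117378.1 measured 1.33 to 2.28 FPKM in NC and 0.54 to 5.04 FPKM in circCSPP1. HSD17B6 measured 2.41 to 2.88 FPKM in NC and 1.38 to 1.91 FPKM in circCSPP1. NACA measured 189 to 256 FPKM in NC and 197 to 268 FPKM in circCSPP1.

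The replicative polymerases held members at both ends of the range. POLE2, the accessory subunit of polymerase epsilon, had the lowest log2 fold change of all 47, -0.45, with a standard error of 0.21 (adjusted p = 0.21), but it was -0.20 without circCSPP1 replicate 1, when TYMS was the lowest at -0.45. It measured 27.6, 27.4 and 29.9 FPKM in NC and 14.2, 27.1 and 22.1 FPKM in circCSPP1, so that replicate 1 was far below and replicate 2 just below the controls. POLD2, an accessory subunit of polymerase delta, measured 84.5, 81.6 and 86.5 FPKM in NC and 123, 93.0 and 95.5 FPKM in circCSPP1, a difference of 0.29 ± 0.12 (SE) on the log2 scale (adjusted p = 0.16, limma) that was 0.16 without circCSPP1 replicate 1. The catalytic subunits POLD1 (66.2 ± 0.904 and 69.9 ± 14.9 FPKM, SD, n = 3) and POLE (25.8 ± 0.661 and 25.6 ± 3.77 FPKM) overlapped.

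RPA1, the large subunit of the single-strand binding protein RPA, measured 96.4, 93.0 and 95.7 FPKM in NC and 77.0, 81.1 and 84.1 FPKM in circCSPP1. These groups did not overlap and differed by -0.23 ± 0.075 (SE) on the log2 scale (adjusted p = 0.089, limma). RPA2 and RPA3 overlapped, at log2 fold changes of 0.03 and -0.19. The flap endonuclease FEN1 measured 111, 116 and 122 FPKM in NC and 111, 105 and 108 FPKM in circCSPP1, a log2 fold change of -0.11 (adjusted p = 0.41), with no overlap but a gap of under 1 FPKM. FEN1 exons share 49 bases with FADS2 on the same strand and 166 with TMEM258 on the opposite strand. FADS2 measured 638, 620 and 639 FPKM in NC and 589, 431 and 507 FPKM in circCSPP1. LIG1, which seals the nicks, measured 20.1, 20.5 and 22.7 FPKM in NC and 19.6, 17.4 and 16.6 FPKM in circCSPP1, and differed by -0.23 on the log2 scale (adjusted p = 0.21). CHAF1A, the large subunit of chromatin assembly factor 1, had 71.0 ± 3.84 FPKM in NC and 75.8 ± 1.17 FPKM in circCSPP1 (SD, n = 3; log2 fold change 0.09, adjusted p = 0.48). CHAF1B of the same complex was separated and lower, at 10.5, 10.9 and 10.3 FPKM in NC and 7.39, 10.3 and 8.95 FPKM in circCSPP1, with replicate 2 just under the lowest control (log2 fold change -0.24, adjusted p = 0.28). The uracil-DNA glycosylase UNG overlapped, at -0.17. GENCODE lists pseudogenes named after PCNA, RFC3, RFC5, POLD2, RPA2, FEN1, RRM2, TYMS and UNG, and the values of these members are uncertain where reads could be split between copies. Exons of CHAF1A, GINS2, POLD1, RFC4, RPA1 and RPA3 also share bases with other genes, from 0.21% (GINS2) to 10.9% (POLD1) of their exon bases.

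**Figure D3:**
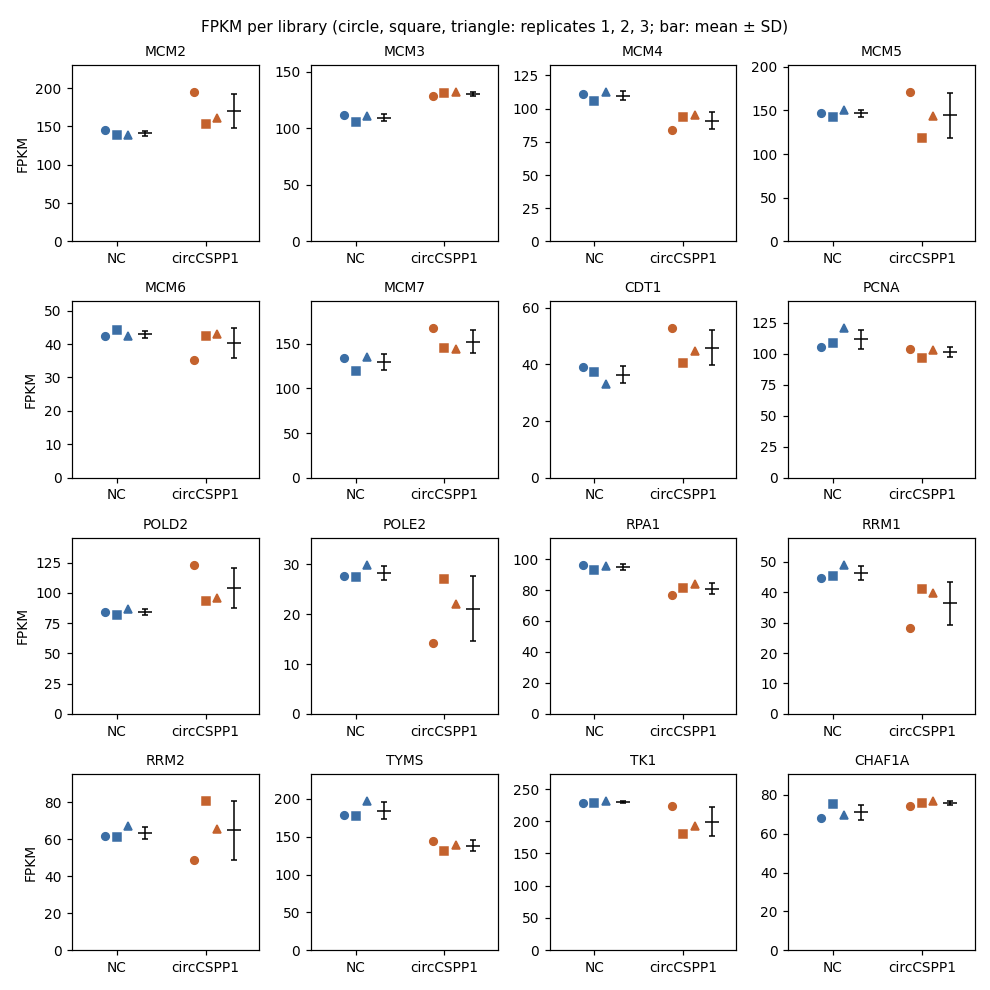
FPKM of 16 of the genes in each library, on axes that start at 0 (circle, square and triangle for replicates 1, 2 and 3; bar, mean ± SD, n = 3). TYMS lay at 178 to 197 FPKM in NC and 130 to 145 in circCSPP1, and MCM3 at 106 to 111 and 129 to 132. In POLE2 and MCM5 the range of the circCSPP1 libraries, lowest to highest, was wider than the difference between the group means.

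The circCSPP1 libraries were further apart than the NC libraries. The median SD on log2(FPKM + 1) over the members was 0.070 in NC and 0.19 in circCSPP1, close to 0.081 and 0.19 over all tested genes, and 37 of 47 members (78.7%) varied more in circCSPP1, as did 78.1% of all tested genes. Over the 47 members, the departure of circCSPP1 replicate 1 from the mean of replicates 2 and 3 had a Pearson correlation of 0.87 and a Spearman correlation of 0.86 with the GC content of the transcript. The points share their libraries and are genes, not replicates, and over the 12305 tested genes with a transcript the Spearman correlation was 0.78. For NC replicate 1 against NC replicates 2 and 3 the Spearman correlation over the members was 0.069. Of the 30 members under 50% GC, replicate 1 was the lowest circCSPP1 library in 27, with a median departure of -0.39, and of the 17 at or above 50% GC it was the highest in 12, with a median departure of 0.20. ORC2 (40.1% GC) and POLE2 (43.7%) departed by -0.79 and -0.74, and POLD1 (65.0%) by 0.49.

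**Figure D4:**
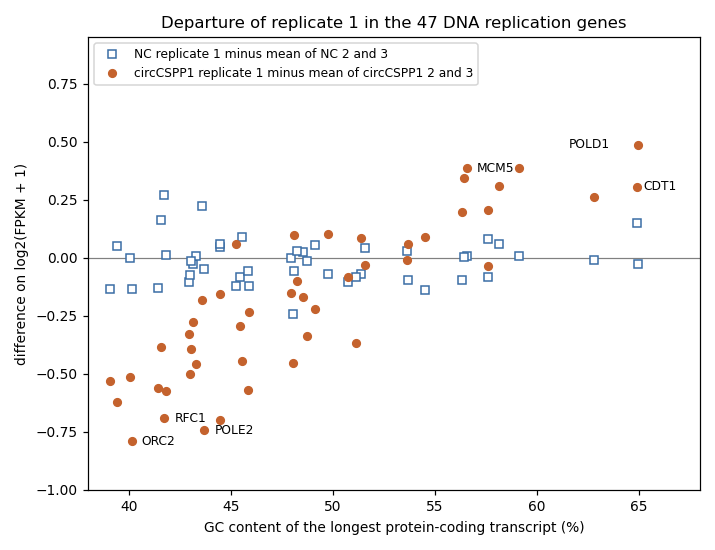
Difference of replicate 1 from the mean of replicates 2 and 3 of its group, on log2(FPKM + 1), against the GC content of the longest protein-coding transcript in percent, for the 47 genes. The circCSPP1 points climb from -0.79 (ORC2) to 0.49 (POLD1) with GC content, and the NC points do not follow it.

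Without circCSPP1 replicate 1, 6 of 47 passed an adjusted p of 0.05 (limma), MCM3 higher and TYMS, TK1, MCM4, RPA1 and LIG1 lower, where 28.5% of tested genes passed, 13.2% higher and 15.3% lower. After a loess correction of each library for GC content and transcript length, 12 of 47 passed, where 28.5% of tested genes did, 14.8% higher and 13.8% lower. CDT1, MCM2, MCM3, MCM7 and POLD2 were the 5 higher, and TYMS, TK1, RRM1, PRIM2, GINS4, MCM4 and RPA1 the 7 lower. The 4 genes MCM3, MCM4, RPA1 and TK1 with TYMS passed both ways, with log2 fold changes after the correction of 0.27, -0.24, -0.20, -0.19 and -0.40. With the replicate block added to the correction 8 passed, and RPA1, TK1, PRIM2 and MCM7 did not, with adjusted p of 0.057, 0.055 and 0.055 for the first 3. Leaving out circCSPP1 replicate 1 moved the fold change of 30 of the 47 members by over 1.5 times or turned its sign, and each other library did so for 8 to 18. The median of the members was -0.05 without replicate 1 and -0.06 after the correction, against 0.01 for all tested genes in both, and the difference between the medians lay between -0.11 and -0.05 under the 18 alternatives run. The share of tested genes called was 11.2% with either smaller pseudocount and with robust variances, 8.2% with no filter, 10.9% with a mean of at least 5 FPKM, 10.7% with median-ratio scaling, 11.4% with quantile scaling and 9.41% without circCSPP1 replicate 2, and TYMS was the only member called in each. It was 11.5% with TPM scaling and 6.77% without variance moderation, where MCM3 and TYMS were called, 7.49% with a replicate block and 22.1% with the block and the correction together. Without NC replicate 1, 2 or 3 or circCSPP1 replicate 3 no member was called by limma, where 2.43%, 2.57%, 3.30% and 3.65% of tested genes were, and 4, 5, 3 and 6 members had an unadjusted p under 0.05 against 20.6%, 19.8%, 21.1% and 21.9% of tested genes. Members at or above 50% GC had a median of -0.02 and those under 50% of -0.14. Without circCSPP1 replicate 1 these medians were -0.07 and -0.04.

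Other genes of the pathway are given for comparison. Of 40 further replication genes, among them kinases of origin firing, fork protection factors, topoisomerases and nucleotide enzymes, 11 were higher and 29 lower, at a median of -0.10 on the log2 scale, and 1 passed an adjusted p of 0.05. That gene was SAMHD1, which degrades dNTPs, at 26.2, 26.2 and 26.5 FPKM in NC and 16.1, 18.8 and 17.8 FPKM in circCSPP1 (-0.56 ± 0.095, SE, on the log2 scale, adjusted p = 0.013, limma). Of 21 regulators of the S phase programme, including the E2F factors, the RB family and cyclin E, 12 were higher and 9 lower, with a median of 0.06, and 1 passed. That gene was SKP2, a ubiquitin ligase subunit that targets cell cycle inhibitors, at 20, 17.8 and 20.4 FPKM in NC and 12.6, 13.9 and 13.8 FPKM in circCSPP1 (-0.50 ± 0.10, SE, on the log2 scale, adjusted p = 0.023, limma). Neither SAMHD1 (0.058 to 0.075) nor SKP2 (0.074 to 0.12) had an adjusted p under 0.05 without NC replicate 1, 2 or 3 or circCSPP1 replicate 3, and with a replicate block SKP2 did not pass (0.061). Without circCSPP1 replicate 1 the medians were 0.02 for the further replication genes and 0.16 for the regulators. There 2 and 4 genes were called higher and 5 and 1 lower, against 13.2% and 15.3% of tested genes. After the correction for GC content and length the medians were -0.04 and 0.09. Of each list 1 gene was then called higher, and 5 and 2 lower, against 14.8% and 13.8% of tested genes.

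Of 20 mitosis genes 18 were lower and 2 higher, at a median of -0.30 on the log2 scale, and 1 passed an adjusted p of 0.05 (KIF20A, a mitotic kinesin, at -0.42, adjusted p = 0.014, limma). After the correction for GC content and length 10 of the 20 passed, all lower, where 13.8% of tested genes were called lower, and without circCSPP1 replicate 1 it was 3, all lower, against 15.3%. KIF20A did not pass without NC replicate 1, 2 or 3 or circCSPP1 replicate 3 (adjusted p of 0.064 to 0.087). The median of the list was -0.12 without circCSPP1 replicate 1 and -0.27 after the correction for GC content and length. The groups were separated for 11 of these 20 genes (55.0%), all lower, where 20.5% of tested genes and 36.2% of the replication genes were separated and lower. The difference between the lists was not tested.

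**Figure D5:**
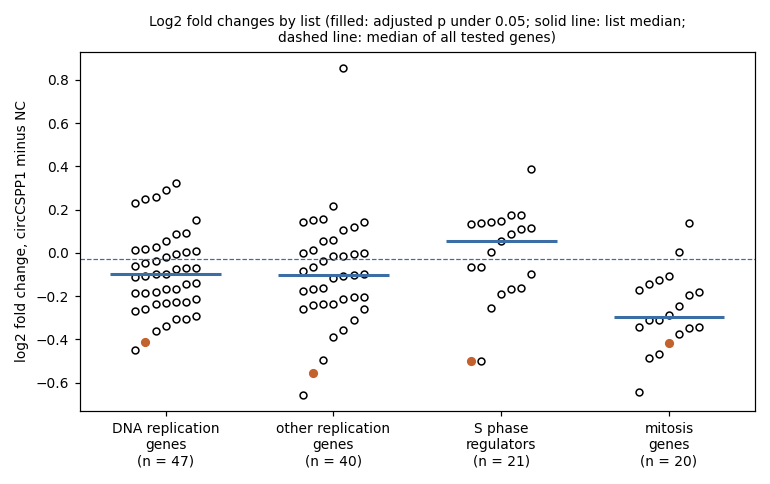
Log2 fold changes (circCSPP1 minus NC) of the 47 DNA replication genes, 40 other replication genes, 21 regulators of the S phase programme and 20 mitosis genes, 1 point per gene. Solid lines are the list medians of -0.10, -0.10, 0.06 and -0.30, the dashed line is the median of all tested genes, and 1 point per list is filled for an adjusted p under 0.05.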

How the data were processed

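Polyadenylated RNA of 6 DU145 libraries was read from both fragment ends on a NovaSeq, and the authors deposited 1 table of FPKM values, rounded to 2 decimals. The submitters' processing notes name hg38; the aligner, the quantifier and the annotation are not given in the sources used here. Since FPKM are normalized, count models were not used. A gene's FPKM also moves when other genes take more of a library: the 20 highest genes held 14.9% to 15.2% of the summed FPKM in NC and 12.0% to 12.1% in circCSPP1. Each column was matched to its sample by group and replicate number, and all 6 were used.

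Depth was computed from low FPKM values of single-transcript genes shorter than 800 nt, from the smallest step at which FPKM times length came out whole (within 0.15 for 92.4% to 98.4% of values, where 30.0% would be so by chance). Coordinates, transcript length and GC content came from GENCODE release 29 (GRCh38), which may not be the authors' annotation.

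Values were taken to log2(FPKM + 1), and the 12322 genes averaging 1 FPKM or more over the libraries were fitted with limma 3.58.1 in R 4.3.3 (trend, two-sided, no covariate) with Benjamini-Hochberg adjustment. Permutation tests were exact (scipy 1.17.1). Figures were drawn with matplotlib 3.10.9. The fit and the depth step were tested on simulated data. For the fit, the simulated fold changes exceeded those of all members and the spread was equal in both groups. That simulation therefore does not show how often changes of the members' size are found. Alternatives were a pseudocount of 0.1 or 0.01, dropping the filter, raising it to 5 FPKM, TPM, median-ratio and quantile scaling, unmoderated and robust variances, a replicate block, a loess correction for GC content and length (span 0.5), and leaving out each library.

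The members, classes and lists were chosen with earlier results of these data known. Per-library values are given for members past an adjusted p of 0.05 and for the most changed and most abundant member of each class, and of the other lists the genes past 0.05 are named; other members were added after their values were seen.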

Additional observations from a re-analysis of the deposited data

How the results depend on the processing

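The number of members with an adjusted p under 0.05 (limma) was 1, TYMS, in 9 of the 18 alternatives. It was 2 with TPM scaling and without moderation of the variance (MCM3 added in both), 12 after the GC content and length correction, 8 with that correction and the replicate block together, and 0 at the thresholds of the study. Across the fits that left out a library it ran from 0 to 6. It was 0 without NC replicate 1, 2 or 3 or circCSPP1 replicate 3, where 4, 5, 3 and 6 members had an unadjusted p under 0.05. Of the 61 further replication genes and S phase regulators, 2 passed, against 9 after the correction, 6 with the correction and the block, and 0 to 12 when a library was left out. Of all tested genes 11.4% passed in the main fit, 28.5% after the correction and 22.1% with the correction and the block. It was 7.49% with the block alone and 2.43% to 28.5% when a library was left out. The log2 fold change of ORC2 ran from -0.33 to 0.15 over the fits that left out a library and was above 0 without circCSPP1 replicate 1. The design text of the series calls the samples paired, without saying what a number shares, and the groups use the same replicate numbers. Same-numbered libraries correlated in their deviations by 0.073, 0.0065 and 0.057 for replicates 1, 2 and 3. The values of replicates 1 and 3 were the highest of all pairs of libraries, though low. NC replicate 2 correlated best with circCSPP1 replicate 3 (0.0090), so with these low values the block was not used in the main result. With the replicate block 1 member (TYMS, adjusted p = 0.047) and 1 of the 61 genes (SAMHD1, with SKP2 lost) passed. The median of the members stayed between -0.16 and -0.05 in all alternatives. Standard errors of up to 0.22 in the members limit what 3 libraries a group can show.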
